A study of Mus musculus with 6 samples.

Results

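The response of cultured mouse microglia to lipopolysaccharide (LPS), the outer membrane glycolipid of Gram-negative bacteria, was read from 2 libraries labelled WT_LPS and 2 labelled WT_untreated. These 4 of the 6 libraries in the series were chosen by their treatment label alone, and no measured value entered the choice. The labels name the cells microglia of brain origin kept in vitro, and both groups compared carry the wild-type genotype. Markers of other brain cells had reads as well, as given below. The remaining 2 libraries come from untreated Cop1 KO microglia, whose label also carries the word Loxp, and they entered the fit of the spread and 1 direct contrast. The labels give no LPS dose, no hours of exposure, no mouse strain, age or sex, no agent in the untreated cultures, and no statement that the 2 libraries of a group came from separate cultures or animals. The p-values below therefore measure the spread between these libraries, which may be technical only.

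LPS is extracted from membranes by LPS-binding protein, passed to CD14 and presented to the TLR4 and MD-2 receptor complex on microglia and other myeloid cells. The receptor signals through MyD88 to NF-kB and MAP kinases, which switch on cytokines and chemokines, and through TRIF to IRF3, which switches on interferon beta. Secreted interferon then acts back on the cells and induces antiviral genes. In microglia, the macrophages of the brain, such activation is known to run together with a loss of the genes of the resting state.

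Each library held between 20568144 and 22553708 counted reads, polyadenylated RNA being the source. Levels are given in CPM, the counts relative to the library size scaled by trimmed mean of M-values (TMM), always untreated before LPS and in the order of the libraries. Log2 fold changes are LPS over untreated with the standard error (SE) of the fit. A gene was called when its adjusted p in edgeR's quasi-likelihood test, with Benjamini-Hochberg adjustment over 15585 genes, fell below 0.05. It was called past 2-fold when glmTreat, edgeR's test against a minimum fold, passed the same threshold.

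Most genes tested were called different between the LPS and untreated libraries, judged by a spread that may be technical only. Of the 15585 genes tested, 11481 (73.7%) were called, 4714 of them raised (30.2% of genes) and 6767 lowered (43.4%). Past 2-fold were 3878 genes (24.9%), with 1986 raised (12.7%) and 1892 lowered (12.1%). In bulk RNA, fewer cells of a type and less RNA per cell cannot be told apart, for these and all later decreases. The fitted change was at least 2-fold upward in 2326 genes and downward in 2835, yet at 64-fold the counts were 229 upward and 19 downward. These counts include genes without reads in one group, whose fitted fold depends on the prior count. The largest changes were thus increases, and the wide calling of small ones sets a high background against which every gene list below has to be read. Scaling moved the balance of small changes. Over all genes the median change was -0.18 (log2) with TMM, -0.04 with median-of-ratios size factors and -0.74 with library size alone, and the raised share of called genes was 41.06%, 49.61% and 19.91% in that order. The sign of changes close to 0 therefore depends on the scaling.

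**Figure D1:**
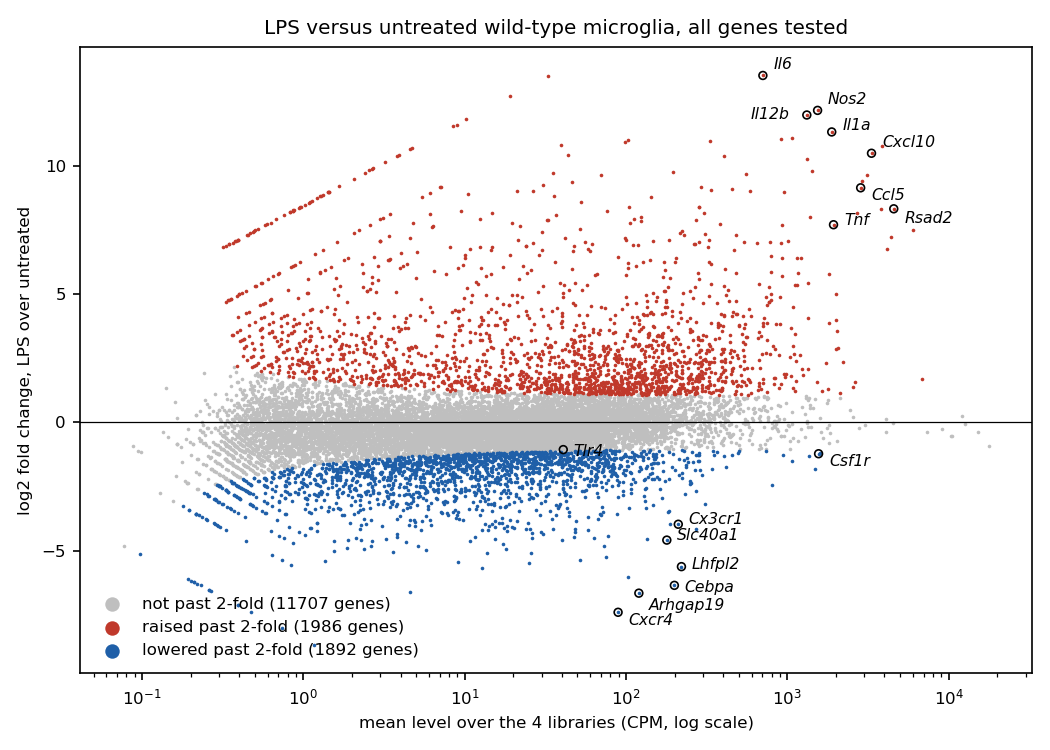
Log2 fold change (LPS over untreated) against mean level in CPM (log scale) for the genes tested, 1 point per gene. Red points (1986) were raised and blue points (1892) lowered past 2-fold, and circled genes are named in the text. The increases reach further from 0 than the decreases, and the slanting rows of points are genes with no or few reads in one group.

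Genes that were silent or barely detected in resting cells gave the largest increases. Interleukin 6, a cytokine of fever and the acute phase, went from 0.198 and 0.0373 CPM to 1393 and 1427 CPM, a log2 fold change of 13.51 ± 0.56 SE. Nos2, the inducible nitric oxide synthase, went from 0.913 and 0.447 CPM to 3087 and 3069.6 CPM. Il12b, the p40 subunit shared by interleukins 12 and 23, went from 0.635 and 0.671 CPM to 2623 and 2657 CPM. The untreated values of these genes rest on a handful of reads, so that their fold is less certain than their level after LPS. Tnfsf4, which encodes the T cell ligand OX40L, had 0 reads in both untreated libraries and 1151 and 1108 reads after LPS, at least 1137-fold higher against a floor of 3 counts over the untreated group (lower 95% counting limit 1090). Large increases were also measured for Il1a, the interleukin 1 alpha gene (11.31 on the log2 scale), Cd69, a lectin of early activation (11.06), Cxcl9 (11.04) and Cxcl11 (10.98), both ligands of the receptor CXCR3, and Hdc, which makes histamine (10.92).

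The order of abundance changed as well, read in RPKM (reads per kilobase of gene and unit of depth, scaled by the authors), which permits comparison between genes. In untreated cells the most abundant messages were Ctsd, a lysosomal aspartic protease, at 8067 and 7994 RPKM, Lyz2, the macrophage lysozyme, at 7901 and 8065 RPKM, and Apoe, a lipid carrier, at 6402 and 6255 RPKM. After LPS the chemokine gene Ccl5 ranked first at 8336 and 7859 RPKM and Ccl3 came next at 7984 and 7775 RPKM, followed by Apoe at 7057 and 6420.2 RPKM. Cxcl10, Actb and the collagenase gene Mmp13 also stood among the 10 most abundant genes after LPS and not among those of untreated cells.

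The receptor complex itself moved in both directions. Tlr4, the signalling receptor for LPS, stood at 56.7 and 53.7 CPM and fell to 25 and 27.9 CPM, or -1.06 ± 0.070 SE on the log2 scale, with an adjusted p of 5.3e-20. Cd14, the co-receptor that hands LPS over, rose from 422 and 415 CPM to 1547 and 1517 CPM (1.87 ± 0.029 SE). Ly96, which encodes MD-2, rose from 7.66 and 6.34 CPM to 12.6 and 11.9 CPM (0.81 ± 0.12 SE), a call that library size alone did not give (adjusted p = 0.06). Of the 5 tested members of the complex list 4 were raised (2 with library size alone) and 1, Tlr4, was lowered, and Lbp, the LPS-binding protein gene, was too low to test. For each of the 3 genes given the groups did not overlap, as for 85.7% of all genes tested.

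Downstream of the receptor, 11 of 19 adaptors and kinases were raised and 4 lowered. Myd88, the adaptor of the NF-kB arm, rose from 55.3 and 54.1 CPM to 357 and 348 CPM (2.69 ± 0.041 SE). Ticam1, which encodes the TRIF adaptor of the interferon arm, rose from 32.1 and 31.7 CPM to 69.1 and 67.2 CPM (1.10 ± 0.063 SE). Ikbke, a kinase that phosphorylates interferon regulatory factors, showed the largest rise of the list, from 51.8 and 53.7 CPM to 700.5 and 679 CPM (3.71 ± 0.040 SE). The receptor-proximal IRAK kinases moved in both directions. Irak1 fell from 102 and 99.5 to 63.3 and 56.6 CPM and Irak4 from 33.3 and 36.5 to 21.5 and 22.2 CPM. Irak3, the kinase-dead member that restrains the pathway, rose by 1.76 on the log2 scale and Irak2 by 2.19. Irf3, the factor that acts first on the interferon beta gene, was at 45.8 and 43.1 CPM and 45.7 and 43.2 CPM and was not called (adjusted p = 0.96), but with median-of-ratios factors it was 0.14 higher after LPS (adjusted p = 0.034). The median of the list was 0.30, and with library size alone it was -0.26 and 10 members were called lowered.

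Among the other Toll-like receptors 7 of 9 were raised and 2 lowered, 6 and 1 of them past 2-fold. Tlr3, a sensor of double-stranded RNA, rose from 19.6 and 17 CPM to 356 and 381 CPM (4.33 ± 0.058 SE). Tlr1 (3.50), Tlr6 (2.50) and Tlr2 (2.35), which pair up to sense bacterial lipoproteins, rose together. The 2 that fell were Tlr13, a sensor of bacterial ribosomal RNA, from 418 and 424 CPM to 78.4 and 85.4 CPM (-2.36 ± 0.039 SE), and Tlr8 (-0.74).

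All 11 NF-kB subunit and inhibitor genes were raised, 10 of them past 2-fold, with a median of 3.38 where the median of all genes was -0.18. Nfkbia, whose product IkB alpha holds NF-kB in the cytoplasm and is resynthesised as a brake, rose from 50.3 and 52.9 CPM to 1133 and 1071 CPM (4.42 ± 0.040 SE). Nfkbiz, an atypical nuclear cofactor needed for Il6, rose most, from 12.7 and 14.2 CPM to 523 and 519.6 CPM (5.28 ± 0.059 SE). Nfkb2 (4.68 ± 0.038 SE) and Nfkb1 (3.14 ± 0.034 SE), the precursor subunits, and Rela (1.14 ± 0.039 SE), the main activating subunit, rose as well. The 20 listed NF-kB target and feedback genes were all raised, 19 of them past 2-fold. Traf1, an adaptor of TNF receptors, went from 0.476 and 0.708 CPM to 818 and 792 CPM, and Icam1, the adhesion ligand of leukocyte integrins, from 65.6 and 65.3 CPM to 3593 and 3505 CPM (5.76 ± 0.033 SE). Gadd45b, a stress response gene, rose by 5.10 and Vcam1, an adhesion molecule, by 6.94.

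The promoters of several of these genes hold the kappaB consensus, the sequence NF-kB recognises. The windows of 3 genes raised by LPS are shown because each carries a match close to the start, and they were selected for having it. The sequences are RefSeq promoter windows on GRCm38.p6, read 5′ to 3′ on the strand of the gene and ending at the base before its start, with the match in capitals.
Nfkbia (chr12:55492648-55492767, minus strand): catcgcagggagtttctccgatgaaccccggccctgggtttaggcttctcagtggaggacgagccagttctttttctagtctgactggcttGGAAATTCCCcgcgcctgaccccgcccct
Cxcl2 (chr5:90903779-90903898, plus strand): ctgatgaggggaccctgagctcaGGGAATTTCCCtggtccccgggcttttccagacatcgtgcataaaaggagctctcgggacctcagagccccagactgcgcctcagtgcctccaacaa
Il6 (chr5:30012994-30013113, plus strand): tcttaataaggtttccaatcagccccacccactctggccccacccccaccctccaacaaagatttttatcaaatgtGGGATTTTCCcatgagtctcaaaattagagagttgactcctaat
The Nfkbia match spans bases 29 to 20 before the start and the Il6 match bases 44 to 35. In Cxcl2, which encodes a neutrophil-attracting chemokine, 2 matches on opposite strands overlap between bases 97 and 87.

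Promoter windows of 250 bases were found for 11474 of the genes tested (14688 windows, some genes having several starts). The kappaB consensus, searched on both strands, was present in 4.64% of all windows, in 7.55% of the 1840 windows of genes raised past 2-fold and in 4.64% of the 1833 windows of genes lowered past 2-fold. In the NF-kB subunit and inhibitor list 7 of 12 windows (58.3%) held it, and in the CXC chemokine list 4 of 9 (44.4%). The NF-kB target and feedback list had 5 of 21 windows (23.8%), the cytokine list 3 of 21 (14.3%) and the CC chemokine list 1 of 7 (14.3%). A match is a description of the letters and not a bound site, and windows of 1 gene can overlap.

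**Figure D2:**
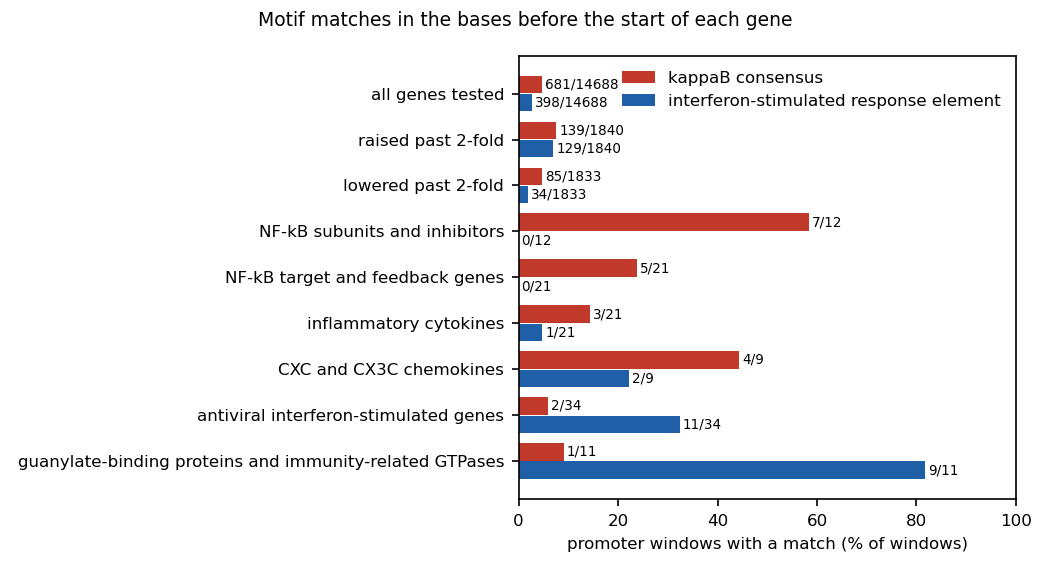
Share of promoter windows (%, 250 bases before the start) with a match to the kappaB consensus (red) or the interferon-stimulated response element (blue), with the number of windows with a match over all windows beside each bar. The subunit list reaches 58.3% for kappaB and the guanylate-binding list 81.8% for the interferon element, against 4.64% and 2.71% of all windows.

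Of 22 inflammatory cytokine genes 21 were raised, 19 past 2-fold, and none was lowered. Tnf, the first cytokine of the NF-kB arm, went from 18.3 and 18.8 CPM to 3872 and 3822 CPM (7.70 ± 0.045 SE, adjusted p = 2.2e-70). Il1b, the inflammasome-processed interleukin 1, went from 7.70 and 9.62 CPM to 5851 and 5816 CPM (9.39 ± 0.064 SE). The pair of LPS libraries lay close together for both genes, and the groups stood far apart. Tnfsf15, a TNF family ligand, rose by 9.76. Il10, the main anti-inflammatory cytokine, had 2 reads over the untreated group and 721 after LPS, a ratio of 544 (95% counting interval 150.1 to 4503). Il12a, the partner of Il12b in interleukin 12, had 0 reads in untreated cells and 98 after LPS, at least 49.3-fold higher (lower 95% limit 40.0). Il10 and Il12a were chosen after their values were seen. The exception in the list was Il11, at 0.437 and 0.224 CPM and 0.671 and 0.483 CPM (adjusted p = 0.16). The median of the list was 6.71, or 6.0 with genes at 0 placed at their bound, and 4.09 with limma on log2(RPKM + 1).

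Colony-stimulating and growth factors were split. Csf1, the survival factor of microglia, rose from 35.4 and 35 CPM to 309 and 310.0 CPM (3.13 ± 0.046 SE) and Csf3, the granulocyte factor, from 3.29 and 3.50 CPM to 22.8 and 25.2 CPM. Csf2, the granulocyte-macrophage factor, had no untreated read and 187 reads after LPS, at least 94.1-fold higher (lower 95% limit 81.1). Among the lowered members, Igf1, an insulin-like growth factor, went from 897 and 888 CPM to 432 and 435 CPM (-1.04 ± 0.030 SE), Vegfa from 39.3 and 40.2 CPM to 13.4 and 16.7 CPM (-1.40 ± 0.087 SE) and Pdgfa (-1.18). In all, 8 of 15 were raised and 5 lowered.

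Chemokine ligands rose almost as a block. Of 12 CC ligands 11 were raised, all past 2-fold, and of 12 CXC and CX3C ligands 10 were raised past 2-fold and 1 was lowered. Ccl5, which attracts T cells and monocytes, went from 9.56 and 10.6 CPM to 5857 and 5510.5 CPM (9.13 ± 0.058 SE). Cxcl10, an interferon-inducible ligand of CXCR3, went from 4.80 and 4.47 CPM to 6604 and 6682 CPM (10.48 ± 0.075 SE). Ccl3, already expressed at rest, went from 75.4 and 78.3 CPM to 8329.8 and 8095 CPM (6.74 ± 0.030 SE). The same held for ligands of monocytes (Ccl7, 8.15, and Ccl12, 8.40) and of neutrophils (Cxcl2, 9.04). The ligands that fell were Ccl6, from 177 and 187 CPM to 156 and 152 CPM (-0.24 ± 0.038 SE, not called by DESeq2, adjusted p = 0.079, or limma, adjusted p = 0.082), and Cxcl14, from 179 and 186 CPM to 73.8 and 67.6 CPM (-1.37 ± 0.045 SE).

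Receptors for chemokines included the largest decrease among genes that averaged at least 5 CPM. Cxcr4, the receptor for CXCL12, fell from 175 and 179.7 CPM to 1.29 and 0.785 CPM, a log2 fold change of -7.40 ± 0.22 SE, or 169-fold lower. Cx3cr1, the fractalkine receptor through which neurons restrain microglia, fell from 396 and 397 CPM to 24.9 and 25.7 CPM (-3.97 ± 0.052 SE). In the opposite direction, Ccrl2, an atypical receptor that presents chemerin, rose from 10.001 and 9.69 CPM to 556 and 544 CPM. Ccr7, the lymph node homing receptor, had 0 untreated reads and 267 after LPS, at least 134-fold higher (lower 95% limit 119). Cytokine receptors were likewise divided, with 19 of 27 raised and 8 lowered, beside 30.2% and 43.4% of all genes tested. Cd40, the receptor for T cell help, rose by 10.24 ± 0.12 SE, whereas Csf1r, the receptor on which microglia depend for survival, fell from 2185 and 2190.2 CPM to 931 and 940.4 CPM (-1.23 ± 0.026 SE) and Il6ra, the interleukin 6 receptor, (-2.28 ± 0.086 SE).

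**Figure D3:**
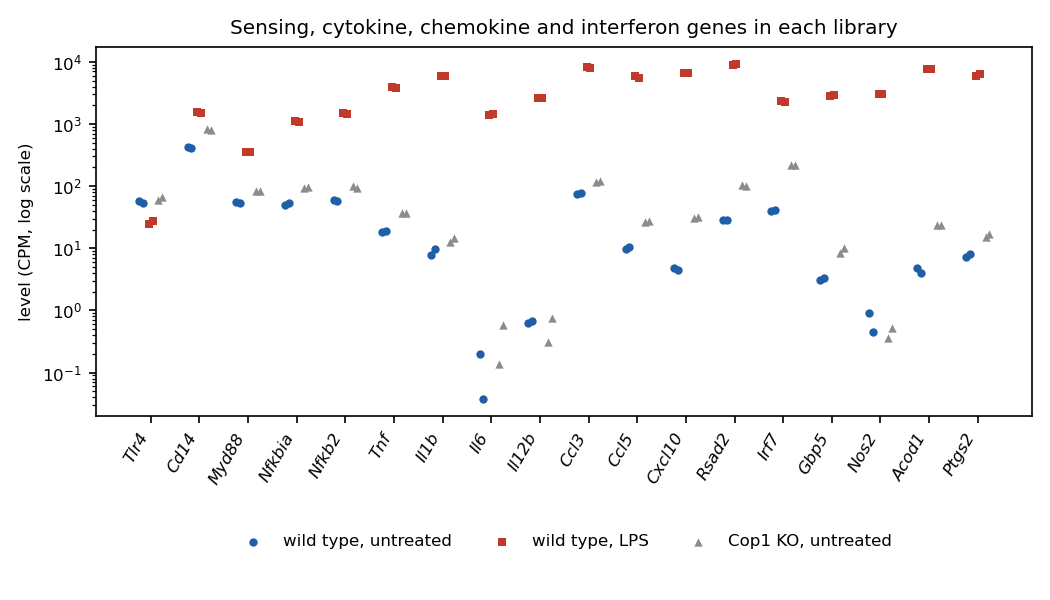
Level (CPM, log scale) of 18 sensing, cytokine, chemokine, interferon and effector genes in each library, with untreated wild type as blue circles, LPS as red squares and untreated Cop1 KO as grey triangles, 2 points each. Apart from Tlr4 every LPS pair lies above its untreated pair, and the 2 points of a group lie close together except at levels below 1 CPM.

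Genes of the interferon arm rose nearly throughout. Ifnb1, the interferon beta gene, had 0 reads in both untreated libraries and 322 and 265 after LPS, at least 295-fold higher (lower 95% limit 272). Irf7, which amplifies interferon production, rose from 40.4 and 41.7 CPM to 2356 and 2234 CPM (5.80 ± 0.039 SE). Socs1, a brake on interferon receptors, rose by 6.93 ± 0.21 SE and Socs3, a brake on interleukin 6 signalling, by 7.31 ± 0.083 SE. Of 25 regulatory factors, STAT and SOCS genes 21 were raised, 18 of them past 2-fold, and 2 were lowered, neither past 2-fold (4 lowered with library size alone, none with DESeq2).

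All 39 antiviral interferon-stimulated genes were raised past 2-fold, against a background of 12.7% of genes, with log2 fold changes from 1.67 to 9.69 and a median of 4.23. Rsad2, which encodes the antiviral enzyme viperin, rose from 28.9 and 28.3 CPM to 8896 and 9312 CPM (8.32 ± 0.038 SE). Cmpk2, its neighbour and a mitochondrial nucleotide kinase, rose from 22.3 and 25 CPM to 7520.2 and 7669 CPM (8.32 ± 0.041 SE). Oasl1, a member of the oligoadenylate synthase family, rose by 9.01 ± 0.12 SE. All 17 guanylate-binding proteins and immunity-related GTPases, which attack vacuoles of intracellular pathogens, were raised past 2-fold as well, with a median of 7.10. Gbp5 rose from 3.14 and 3.28 CPM to 2827 and 2874 CPM (9.79 ± 0.099 SE) and Gbp4 from 0.873 and 1.12 CPM to 569 and 591 CPM. Near-identical copies in this family (Gbp genes, Tgtp1 and Tgtp2) and among interferon-inducible p200 genes such as Ifi205 share reads, so that counts of uniquely aligned reads may understate single members.

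Some promoters of this group carry the interferon-stimulated response element, searched on both strands as TTTC, then any NN, then TTTC. It was present in 2.71% of all windows, in 7.01% of windows of genes raised past 2-fold and in 1.85% of those lowered. In the antiviral list 11 of 34 windows (32.4%) held it and in the guanylate-binding and GTPase list 9 of 11 (81.8%). Other motifs were counted too. The AP-1 motif stood in 9 of the 34 antiviral windows (26.5%), against 4.75% of all windows. In the cytokine list it stood in 5 of 21 windows (23.8%), where the kappaB consensus stood in 3. It was in 2 of 12 windows (16.7%) of the NF-kB subunit and inhibitor list and 3 of 21 (14.3%) of the target list. The mitosis (0 of 14) and DNA replication (0 of 15) windows lacked it. Among windows of genes raised past 2-fold it stood in 7.17%, and the C/EBP motif in 10.7% against 7.56% of all. The E2F motif stood in 1.09% against 1.85% and the sterol response element in 1.14% against 1.04%. The windows of 4 genes with a match to the interferon element are shown, chosen for that match among raised members, with the element in capitals.
Gbp2 (chr3:142620543-142620662, plus strand): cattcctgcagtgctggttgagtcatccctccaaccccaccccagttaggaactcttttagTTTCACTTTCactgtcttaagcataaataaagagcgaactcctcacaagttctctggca
Gbp5 (chr3:142496734-142496933, plus strand): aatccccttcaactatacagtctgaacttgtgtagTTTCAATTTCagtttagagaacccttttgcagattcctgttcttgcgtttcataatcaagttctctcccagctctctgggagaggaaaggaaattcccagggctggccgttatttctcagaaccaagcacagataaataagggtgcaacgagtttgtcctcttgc
Rsad2 (chr12:26456453-26456602, minus strand): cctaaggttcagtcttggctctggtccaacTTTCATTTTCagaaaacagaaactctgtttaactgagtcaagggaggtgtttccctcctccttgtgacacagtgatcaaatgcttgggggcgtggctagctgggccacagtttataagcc
Ifit1 (chr19:34640739-34640888, plus strand): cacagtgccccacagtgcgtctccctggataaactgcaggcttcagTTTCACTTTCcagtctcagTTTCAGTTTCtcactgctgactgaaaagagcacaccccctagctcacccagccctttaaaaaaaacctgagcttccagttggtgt
The match lies at bases 59 to 50 before the start in Gbp2, 165 to 156 in Gbp5 and 120 to 111 in Rsad2, and Ifit1, whose product binds viral RNA, has 2 copies, at bases 104 to 95 and 85 to 76. Ifit1 rose from 13.7 and 14.7 CPM to 1791 and 1847 CPM (7.002 ± 0.054 SE) and Gbp2 from 18.1 and 19.8 CPM to 5288 and 5437 CPM (8.14 ± 0.047 SE). The Gbp5 window also holds a kappaB match, the same bases as in Nfkbia, left in lower case above. The Cxcl10 window, shown next, likewise holds both kinds of element.
Cxcl10 (chr5:92348890-92349139, minus strand): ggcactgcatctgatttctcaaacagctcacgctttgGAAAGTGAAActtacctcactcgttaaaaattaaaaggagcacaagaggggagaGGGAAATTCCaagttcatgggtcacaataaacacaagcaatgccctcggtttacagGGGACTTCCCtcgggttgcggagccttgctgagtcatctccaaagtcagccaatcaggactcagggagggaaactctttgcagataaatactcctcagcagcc
Its first run of capitals, bases 213 to 204, matches the interferon element on the opposite strand, and the next ones, bases 159 to 150 and 103 to 94, match the kappaB consensus.

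Effector enzymes made up several of the largest changes. Acod1, which makes the antimicrobial metabolite itaconate, went from 4.76 and 4.06 CPM to 7723 and 7767 CPM (10.78 ± 0.077 SE). Slc7a2, which imports arginine, the substrate of nitric oxide synthase, rose from 55.2 and 54.3 CPM to 2205 and 2299 CPM (5.36 ± 0.037 SE). Ch25h, which makes the oxysterol 25-hydroxycholesterol, rose by 6.495 ± 0.050 SE. Of this list of 12 genes 10 were raised past 2-fold and 2 were lowered (1 with DESeq2), Arg2, a mitochondrial arginase, among them (-0.96 ± 0.19 SE). Genes of prostaglandin and leukotriene synthesis moved in both directions, 5 of 15 being raised and 9 lowered (3 and 10 with library size alone). All genes tested were split as well, 30.2% raised and 43.4% lowered. Ptgs2, the inducible cyclooxygenase, went from 7.26 and 8.13 CPM to 5979 and 6391 CPM (9.65 ± 0.067 SE) and Ptges, the inducible prostaglandin E synthase, from 2.50 and 2.50 CPM to 451 and 427 CPM (7.45 ± 0.12 SE), while the constitutive Ptgs1 fell from 19.4 and 19.4 CPM to 4.36 and 5.61 CPM (-1.97 ± 0.13 SE). Synthases of other lipid mediators fell too, with Hpgds (prostaglandin D) at -1.31, Tbxas1 (thromboxane) at -1.08 and Alox5 (leukotrienes) at -2.16.

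Secreted defence proteins followed. Saa3, an acute-phase protein of macrophages, rose from 8.49 and 7.79 CPM to 1069 and 1056 CPM (7.03 ± 0.067 SE) and Lcn2, which withholds iron from bacteria, from 1.87 and 1.68 CPM to 76.7 and 75.3 CPM (5.42 ± 0.16 SE). C3, the central complement protein, rose from 28.1 and 29.2 CPM to 2412 and 2422 CPM (6.40 ± 0.041 SE) and Cfb, the factor that amplifies it, by 6.25 ± 0.096 SE. The complement list as a whole had 10 of 19 genes raised and 6 lowered (7 and 9 with library size alone). C5ar2, a decoy receptor, fell (-2.77 ± 0.14 SE). C1qc, a subunit of the initiating C1q complex, was abundant in both groups (1338 and 1321 and 1369 and 1268 CPM) and was not called, but with library size alone it was lowered (-0.58).

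Inflammasome and lytic death genes were raised in 13 of 16 cases. Nlrp3 rose from 31.2 and 30.8 CPM to 1299.8 and 1291 CPM (5.39 ± 0.042 SE), Casp4, the caspase that binds cytosolic LPS, from 13.3 and 13.1 CPM to 332 and 347 CPM (4.69 ± 0.066 SE), and Mlkl, the executor of necroptosis, by 5.04 ± 0.073 SE. Other sensors fell, with Nlrp1b at -2.49 ± 0.14 SE and Nlrc4, the flagellin inflammasome, at -0.67 ± 0.096 SE. Proteases of the matrix also went both ways. Mmp13, a collagenase, rose from 70.2 and 62.9 CPM to 11643 and 12246 CPM (7.49 ± 0.035 SE) and Mmp14, a membrane protease, by 4.73 ± 0.043 SE, whereas Plau, the urokinase plasminogen activator, fell from 1366 and 1362 CPM to 247 and 249.2 CPM (-2.46 ± 0.030 SE). Of 21 genes in that list 13 were raised and 6 lowered.

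Antigen presentation was raised most clearly for class I. All 19 genes of MHC class I and peptide loading were raised, 17 past 2-fold, with a median of 2.81. Tap1, which pumps peptides to class I molecules, rose from 50.5 and 46.7 CPM to 1579 and 1498 CPM (4.99 ± 0.040 SE) and Nlrc5, the class I transactivator, from 47.8 and 50.1 CPM to 924 and 919 CPM (4.23 ± 0.039 SE). H2-Q6 and H2-Q7 resemble other class I genes, and their own counts are uncertain. In the class II list 7 of 10 were raised and 1 lowered (5 and 3 with library size alone), from a low base: H2-Ab1, a class II beta chain, went from 4.41 and 3.95 CPM to 17.9 and 15.5 CPM (1.999 ± 0.14 SE) and Cd74, the invariant chain, from 34.1 and 33.6 CPM to 76.9 and 73 CPM. Of 15 costimulatory and checkpoint genes 12 were raised past 2-fold and 3 were lowered. Cd274, which encodes the inhibitory ligand PD-L1, rose from 34.8 and 35.7 CPM to 1785 and 1862 CPM (5.69 ± 0.041 SE), while Vsir, the checkpoint VISTA, fell from 409 and 403 CPM to 57.5 and 59.6 CPM (-2.79 ± 0.041 SE).

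Receptors for antibody, sugars and debris were divided, with 14 of 25 raised and 11 lowered, beside 30.2% and 43.4% of all genes tested. The activating Fc receptors Fcgr1 (3.29 ± 0.034 SE) and Fcgr4 (3.31 ± 0.040 SE) and the mycobacterial lectin Clec4e (7.71 ± 0.11 SE) rose. The endocytic receptors Lrp1, from 2306 and 2307 CPM to 661 and 632 CPM (-1.83 ± 0.027 SE), and Stab1, from 1956 and 1927 CPM to 806 and 769.6 CPM (-1.30 ± 0.027 SE), fell. Genes of nucleotide and adenosine signalling were raised in 10 of 15 cases and lowered in 4 (6 and 8 with library size alone). Adora2a, the adenosine receptor that raises cyclic AMP, went from 0.159 and 0.186 CPM to 146 and 135 CPM (9.62 ± 0.47 SE), and P2ry14 rose by 5.44 ± 0.16 SE, while P2rx7, the ATP-gated channel that triggers the inflammasome, fell from 116 and 120.1 CPM to 44.9 and 43.1 CPM (-1.42 ± 0.051 SE).

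**Figure D4:**
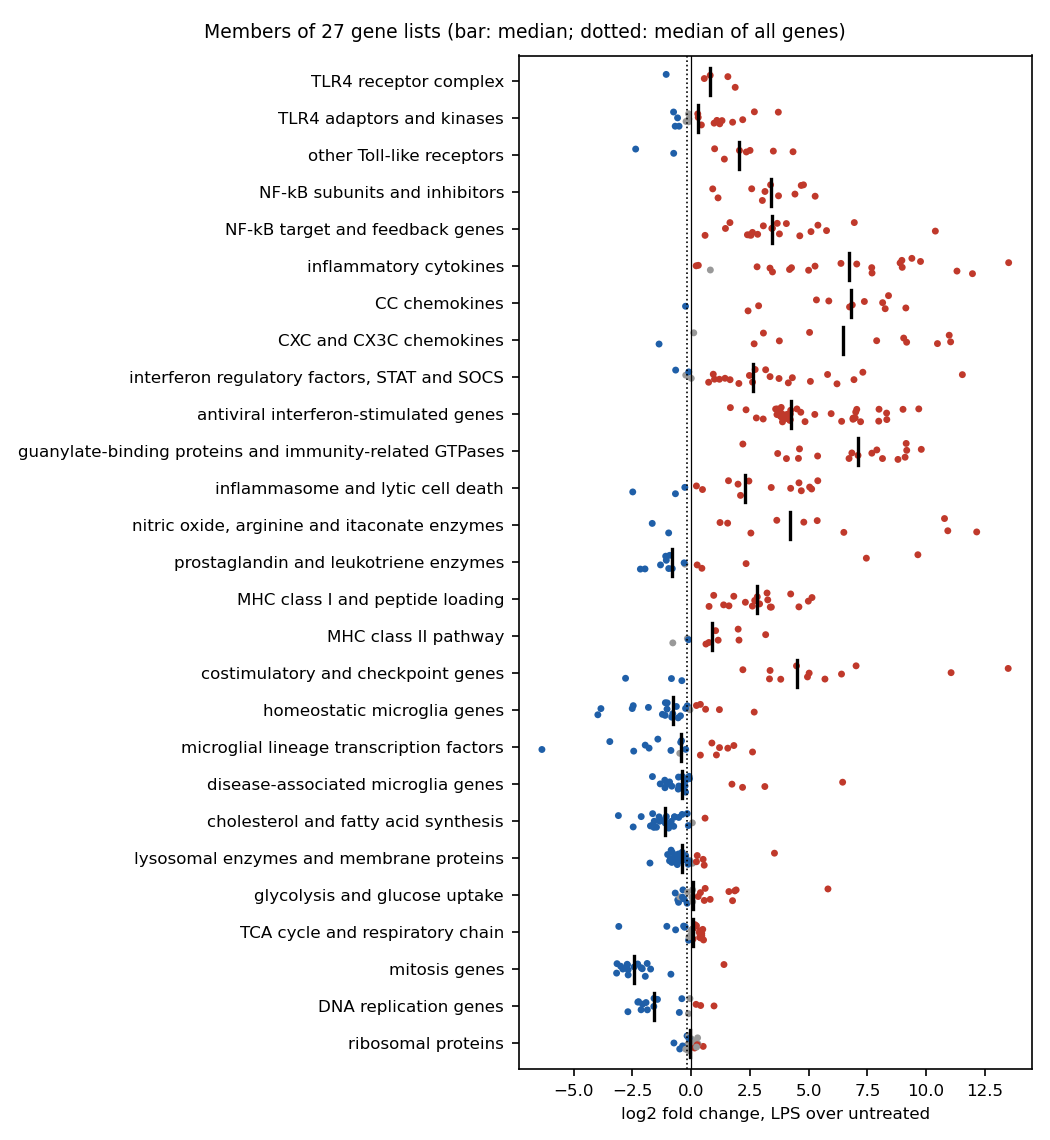
Log2 fold change (LPS over untreated) of each tested member of 27 gene lists, 1 point per gene, red where called raised, blue where called lowered and grey where not called. Black bars mark the list medians and the dotted line the median of all genes (-0.18). The interferon-stimulated and guanylate-binding lists lie wholly to the right of 0, and 16 of 17 mitosis genes lie to the left.

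Regulators of the resting programme were affected unevenly. Cebpa, a lineage factor of myeloid cells, fell from 391 and 397 CPM to 5.20 and 4.41 CPM, a log2 fold change of -6.35 ± 0.11 SE, or 81.7-fold lower. Its family members Cebpb, from 93.2 and 93.9 CPM to 333 and 311 CPM (1.78 ± 0.042 SE), and Cebpd (2.16 ± 0.080 SE), both known from acute inflammation, rose. Maf, a basic leucine zipper factor, rose from 126 and 125 CPM to 443 and 441 CPM (1.82 ± 0.035 SE). Mef2c, a factor that restrains microglial activation, fell (-2.45 ± 0.058 SE). Spi1, which encodes the myeloid master factor PU.1, rose by 1.56 ± 0.032 SE and its partner Irf8 by 2.61 ± 0.031 SE. The lineage list had 7 of 18 genes raised and 10 lowered, beside 30.2% and 43.4% of all genes tested.

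Immediate early, AP-1, Klf and C/EBP factor genes moved in both directions, 14 of 26 being raised and 10 lowered (9 raised with library size alone). For this list and the next, the shares over all genes tested were 30.2% raised and 43.4% lowered. Fos fell from 125 and 127 CPM to 36.2 and 31.7 CPM (-1.89 ± 0.056 SE), Egr2 (-2.53 ± 0.095 SE) and Myc (-1.92 ± 0.10 SE), whereas Junb (2.05 ± 0.036 SE) and Klf6 (2.12 ± 0.034 SE) rose. Of 18 MAP kinase feedback and ETS genes 10 were raised and 7 lowered (7 and 9 with library size alone). Among the phosphatases of this list, the nuclear Dusp2 rose by 8.79 ± 0.24 SE and Dusp1 by 2.09 ± 0.042 SE, and Dusp6, which acts on ERK, fell (-1.41 ± 0.057 SE), as did the ERK-responsive factor Etv5 (-1.49 ± 0.078 SE).

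Most of the homeostatic list fell, 17 of 23 tested genes being lowered and 5 raised, with a median of -0.78 (2 raised, 19 lowered and a median of -1.35 with library size alone). Besides Cx3cr1, Gpr34, a lysophosphatidylserine receptor, fell from 28.8 and 28.8 CPM to 1.90 and 2.11 CPM (-3.84 ± 0.19 SE), Olfml3 from 138 and 139 CPM to 25.5 and 24.6 CPM (-2.47 ± 0.057 SE) and Tmem119 from 7.06 and 7.20 CPM to 1.23 and 1.27 CPM (-2.51 ± 0.24 SE). Trem2, a lipid sensor, also fell (-0.83 ± 0.032 SE). Mertk, which takes up dying cells, rose from 152 and 155 CPM to 348 and 358 CPM (1.20 ± 0.035 SE), and P2ry12, the ADP receptor of resting microglia, rose from 7.26 and 6.64 CPM to 10.7 and 10.6 CPM (0.61 ± 0.13 SE). The other raised members were P2ry13, a related ADP receptor, from 6.43 and 8.31 CPM to 49.1 and 45.8 CPM (2.68 ± 0.10 SE), the transcription factor gene Sall1 (0.39 ± 0.11 SE) and the UDP receptor gene P2ry6 (0.22 ± 0.037 SE). With library size alone P2ry12 was not called (adjusted p = 0.71) and Sall1 (-0.17, not called) and P2ry6 (-0.34, lowered) changed sign, and Sall1 was not called without LPS replicate 1 (adjusted p = 0.11). Some defining genes of microglia in the brain were thus scarce in these cultures before LPS. Tmem119 and P2ry12 were under 10 CPM, and Siglech, chosen after its values were seen, had 2 reads over the 4 libraries, while Csf1r, Cx3cr1 and Trem2 were plentiful.

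Genes of the disease-associated state did not rise as a set. Of 22 listed, 18 were lowered and 4 raised, but only 4 of the decreases passed 2-fold. Gpnmb went from 12216 and 12255 CPM to 8454 and 8388 CPM (-0.54 ± 0.022 SE), Clec7a, the beta-glucan receptor, from 576 and 579.6 CPM to 222 and 241 CPM (-1.32 ± 0.034 SE) and Spp1, or osteopontin, (-0.26 ± 0.024 SE), a change not called by limma (adjusted p = 0.057). Apoe stood at 13162 and 12857 CPM and 12964 and 11770.0 CPM (-0.07 ± 0.026 SE) and changed sign with the scaling (0.07 with median-of-ratios factors). The raised members were Cst7, a cathepsin inhibitor (6.45 ± 0.14 SE), Csf1, Axl, a receptor for dying cells (2.19 ± 0.038 SE), and Lilrb4a, an inhibitory receptor (1.73 ± 0.029 SE).

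**Figure D5:**
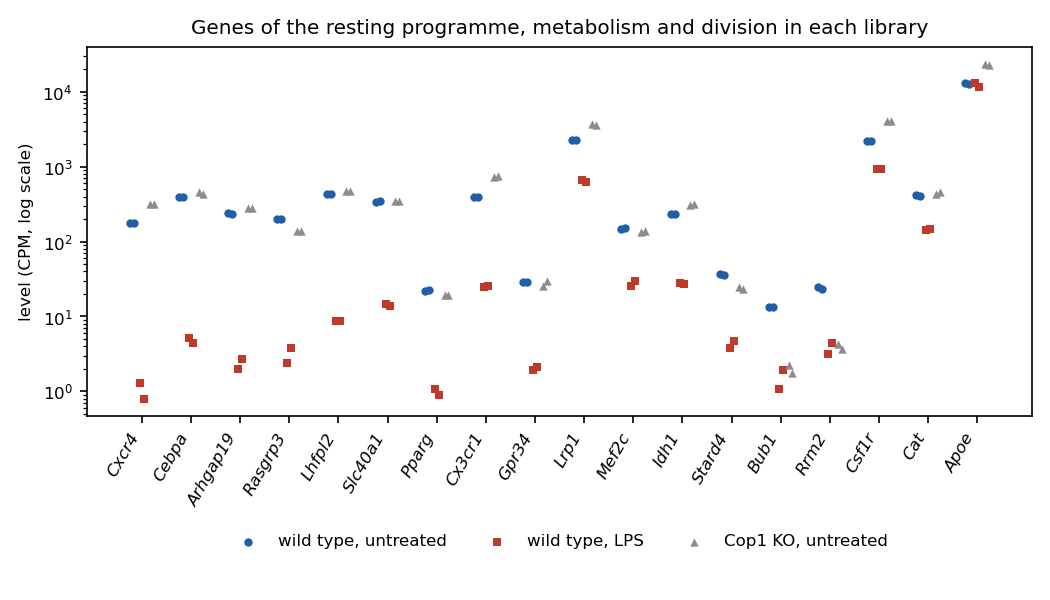
Level (CPM, log scale) of 18 genes of the resting programme, metabolism and division in each library, with untreated wild type as blue circles, LPS as red squares and untreated Cop1 KO as grey triangles, 2 points each. Cxcr4, Cebpa, Arhgap19 and Rasgrp3 lie below 6 CPM after LPS and between 175 and 397 CPM in untreated wild-type libraries, whereas Apoe differs little between them.

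The largest decreases outside these lists left a small part of the untreated level after LPS. Arhgap19, a GTPase-activating protein, fell from 244 and 231 CPM to 2.01 and 2.72 CPM (-6.66 ± 0.15 SE). Rasgrp3, an exchange factor for Ras, fell from 199.5 and 203 CPM to 2.40 and 3.74 CPM (-6.04 ± 0.14 SE). Lhfpl2, a tetraspan membrane protein, fell from 432 and 432 CPM to 8.78 and 8.75 CPM (-5.62 ± 0.078 SE). The group also held surface proteins: Kcnj2, an inward-rectifier potassium channel, fell (-5.38 ± 0.16 SE), Slco2b1, an organic anion transporter, (-5.23 ± 0.12 SE), Gpr183, the receptor for an oxysterol made through CH25H, (-5.66 ± 0.40 SE), Lpar5, a lysophosphatidic acid receptor, (-5.43 ± 0.42 SE), and Cnr2, the cannabinoid receptor of immune cells, (-4.94 ± 0.24 SE). Dkk2, an inhibitor of Wnt signalling, fell (-5.47 ± 0.23 SE).

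Iron handling genes moved in both directions, 4 of 9 being raised and 5 lowered (2 and 7 with library size alone). Such a split is common here, since 30.2% of all genes tested were raised and 43.4% lowered. Slc40a1, which encodes the iron exporter ferroportin, fell from 343 and 344 CPM to 14.5 and 14 CPM (-4.59 ± 0.065 SE), and Slc11a2, an iron importer, rose from 72.1 and 71.7 CPM to 309 and 307 CPM (2.10 ± 0.040 SE). Tfrc, the transferrin receptor, fell (-0.81 ± 0.065 SE) and Steap3, the ferrireductase that works with it, (-2.89 ± 0.13 SE). Antioxidant genes were divided as well. Sod2, the mitochondrial superoxide dismutase, rose from 62.9 and 65.2 CPM to 1120.2 and 1118 CPM (4.13 ± 0.036 SE) and Slc7a11, the cystine importer, by 3.62 ± 0.085 SE, whereas Cat, or catalase, fell from 415 and 413 CPM to 143 and 146 CPM (-1.52 ± 0.036 SE) and Hmox1, which degrades haem, from 1337 and 1332 CPM to 552 and 542 CPM (-1.29 ± 0.028 SE). The antioxidant list had 14 of 23 genes raised and 8 lowered (11 and 12 with library size alone).

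Sterol synthesis was lowered nearly throughout. Of 27 cholesterol and fatty acid synthesis genes 25 were lowered, 11 past 2-fold, and 1 was raised, with a median of -1.11 (-0.67 with limma, -1.67 with library size alone). Dhcr7, which catalyses the last step of cholesterol synthesis, fell from 57.5 and 55 CPM to 9.56 and 10.8 CPM (-2.47 ± 0.091 SE), Msmo1, a sterol oxidase, from 108 and 106 CPM to 24.5 and 24.6 CPM (-2.13 ± 0.061 SE) and Stard4, a sterol carrier, from 36.6 and 35.6 CPM to 3.75 and 4.71 CPM (-3.10 ± 0.13 SE). The gene that rose was Mvd, of the mevalonate pathway (0.59 ± 0.078 SE), which was not called with library size alone (adjusted p = 0.75). Among export genes Abca1 fell (-1.16 ± 0.035 SE) and Abcg1 rose (1.496 ± 0.036 SE), and the fatty acid and lipid regulator Pparg fell from 22 and 22.3 CPM to 1.06 and 0.906 CPM (-4.48 ± 0.25 SE).

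Most lysosomal genes fell a little, 25 of 32 being lowered and 5 raised, with 1 in each direction past 2-fold. The median was -0.41, against -0.27 with median-of-ratios factors (6 raised, 22 lowered) and -0.97 with library size alone (1 raised, 29 lowered). Ctsd fell (-0.92 ± 0.021 SE) and Atp6v0d2, a proton pump subunit, (-1.75 ± 0.039 SE). Ctsc, which activates granule proteases, went against the rest, from 325 and 319 CPM to 3665 and 3841 CPM (3.54 ± 0.029 SE). In the TCA cycle and respiratory chain list the changes were small, 12 of 23 raised and 7 lowered with a median of 0.08 (15 raised and 3 lowered with DESeq2). With library size alone none was raised, 22 were lowered and the median was -0.48. Idh1, the cytosolic isocitrate dehydrogenase, stood apart with a fall from 236 and 236 CPM to 28.3 and 27.4 CPM (-3.08 ± 0.053 SE). Glycolysis did not move as a set either, 10 of 23 being raised and 8 lowered (median 0.06), or 6 and 15 with library size alone (median -0.50). Among its raised members, the transporter Slc2a6 rose by 5.82 ± 0.057 SE, the hexokinase Hk3 by 1.86 ± 0.030 SE, the phosphofructokinase Pfkp by 1.91 ± 0.038 SE and Hif1a, the oxygen-sensing factor, by 1.61 ± 0.041 SE. The lowered members included the isomerase Gpi1 (-0.57 ± 0.042 SE) and the phosphofructokinase Pfkm (-0.54 ± 0.064 SE).

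Most division genes fell. Of 17 mitosis genes 16 were lowered, 15 past 2-fold, with a median of -2.42 (-1.47 with limma), and of 17 DNA replication genes 12 were lowered, 10 past 2-fold, and 3 raised, with a median of -1.58 (-0.58 with limma). With library size alone 16 replication genes were lowered and 1 raised. Bub1, a spindle checkpoint kinase, fell from 13.4 and 13.4 CPM to 1.06 and 1.93 CPM (-3.17 ± 0.23 SE), Kif11, a spindle motor, from 24.4 and 25 CPM to 2.91 and 3.26 CPM (-3.002 ± 0.15 SE) and Rrm2, which supplies deoxynucleotides, from 24.9 and 23.6 CPM to 3.13 and 4.41 CPM (-2.69 ± 0.15 SE). The exception in the mitosis list was Tpx2, a spindle assembly factor, which rose from 39.1 and 42.2 CPM to 106 and 108 CPM (1.40 ± 0.058 SE). Cdkn1a, the p21 inhibitor of cyclin-dependent kinases, rose from 305 and 303 CPM to 1799.6 and 1759 CPM (2.55 ± 0.029 SE) together with the D-type cyclin Ccnd2 (2.64 ± 0.034 SE). Sesn1, a stress-responsive p53 target, fell from 124 and 119 CPM to 5.25 and 5.49 CPM (-4.50 ± 0.11 SE).

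Stress and chromatin genes moved in both directions, as did all genes tested (30.2% raised and 43.4% lowered). Of 20 ER stress and integrated stress response genes 7 were raised and 9 lowered (3 and 15 with library size alone), near those shares. Hspa5, the chaperone BiP, rose from 472 and 476 CPM to 1333 and 1350.3 CPM (1.501 ± 0.029 SE), and Eif2ak3, the stress kinase PERK, fell from 39.8 and 43 CPM to 12 and 11.7 CPM (-1.81 ± 0.089 SE). Heat shock chaperones were raised in 6 of 10 cases and lowered in 2 (3 and 6 with library size alone), the inducible Hspa1b among the former (3.23 ± 0.29 SE). Among 15 epigenetic and RNA regulators 6 were raised and 5 lowered (10 lowered with library size alone). Kdm6b, a histone H3 demethylase known to be inducible in macrophages, rose from 12.5 and 10.2 CPM to 77.6 and 78.1 CPM (2.78 ± 0.082 SE) and Tet2, a DNA demethylation enzyme, by 2.03 ± 0.056 SE, while Dnmt1, the maintenance DNA methyltransferase, fell from 132 and 129 CPM to 38.1 and 37 CPM (-1.80 ± 0.052 SE). Of 20 ribosomal protein genes 3 were raised and 5 lowered, none past 2-fold (0 and 17 with library size alone, 9 and 2 with median-of-ratios factors), and reads that also match their pseudogenes would be missing from unique counts.

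Markers of other brain cells were measured too, since the cultures could hold such cells. Gfap, the astrocyte filament, stood at 314 and 314 CPM and 343 and 338 CPM, and Slc1a3, the astrocyte glutamate transporter, at 132 and 131 and 129 and 134 CPM, and both directions depended on the scaling. All 15 astrocyte markers were tested, 5 were raised and 3 lowered, none past 2-fold (2 and 12 with library size alone, 8 raised with median-of-ratios factors). Their summed level was 228 to 230.0 RPKM in untreated libraries and 271 to 276 RPKM after LPS. Such sums cover every listed marker, tested or not, and carry the authors' size factors. These factors set LPS levels higher relative to untreated ones than TMM does, so the sums and the calls are scaled differently. The summed level of the 11 listed oligodendrocyte lineage genes was 58.0 to 58.8 RPKM and 95.5 to 99.9 RPKM. Of the 9 tested 2 were raised and 4 lowered (1 and 6 with library size alone, 2 and 2 with DESeq2). Cnp was up (1.92 ± 0.043 SE) and Mbp, a myelin protein gene, down (-1.96 ± 0.077 SE). Endothelial and mural markers summed to 15.3 to 15.6 RPKM and 26.4 to 26.7 RPKM. Of these 7 tested genes 5 were raised, all past 2-fold, and 2 lowered, with a median of 1.45 (0.89 with library size alone) and a range of -1.14 to 4.33, and Cldn5 was at 0 in all 4 libraries. The raised ones included the VEGF receptor genes Kdr (2.43 ± 0.083 SE) and Flt1 (1.18 ± 0.055 SE). Neuron markers summed to 12.1 to 12.3 and 12.2 to 13 RPKM (1 of 9 raised, 3 lowered, but 0 and 1 without untreated replicate 2 or LPS replicate 1, 0 and 7 with library size alone and 1 and 0 with DESeq2) and fibroblast markers to 94.7 to 96.7 and 105 to 106 RPKM (4 of 8 raised, 1 lowered, but 2 and 4 with library size alone). Border macrophage and monocyte markers summed to 203 to 206 and 271 to 273 RPKM, although 4 of the 6 tested were lowered and 1 raised, with a median of -0.60 and a lowest value of -3.33 (1 lowered with DESeq2, all 6 with library size alone). The raised one was Ms4a7, at 150.5 and 152 RPKM and 216 and 217 RPKM, which was lowered with library size alone (-0.21). Neutrophil, lymphocyte and dendritic cell markers summed to under 10 RPKM in each library, and Elane, Cd3e and Cd209a had no reads. Of the dendritic cell markers 3 were raised, Ccr7 (above), Xcr1 (6.76 ± 0.48 SE) and Clec9a (4.13 ± 0.41 SE). The part of these cells in the results above was not tested.

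The LPS libraries could also be set against untreated Cop1 KO microglia, where 12399 genes (79.6%) were called, 6179 higher (39.6%) and 6220 lower (39.9%) after LPS. Genotype and treatment both differ in this contrast, and so do the levels of some markers of other brain cells. Astrocyte markers summed to 271 and 276 RPKM in the LPS libraries and to 20.7 and 20.2 RPKM in the knockout libraries. All 15 were called higher after LPS, as were 8 of 9 tested neuron markers, with 0 lower. Fibroblast markers went both ways, 4 of 8 tested being higher and 3 lower. The part of these differences in the contrast was not tested. Named inflammatory genes were higher after LPS than in untreated knockout cells. Tnf was at 37.3 and 36.3 CPM in the knockout libraries (LPS over knockout 6.71 on the log2 scale), Il1b at 12.5 and 14.5 CPM (8.75) and Rsad2 at 103 and 101 CPM (6.48). Saa3 was at 150.2 and 148 CPM in the knockout (2.83). Cebpa was at 461 and 439 CPM in the knockout (-6.54), Cxcr4 at 316 and 322 CPM (-8.25) and Csf1r at 4060.0 and 4024 CPM (-2.11), all well above their LPS levels. Bub1 was low in both, at 2.25 and 1.77 CPM in the knockout (-0.44, not called). Cop1, the ubiquitin ligase gene deleted in the knockout, rose with LPS in wild-type cells from 12.7 and 11.5 CPM to 23.4 and 27.2 CPM (1.06 ± 0.096 SE). In the knockout libraries it stood at 8.06 and 9.23 CPM, below the untreated wild type but not at 0, and the labels do not say which exons the deletion removes.

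Some of the genes given share exonic bases with other annotated entries, and reads from the shared bases cannot be told apart. The main partner of Cfb, Ctsd and Lilrb4a lies on the same strand. That of Cxcl11, Arg2, Pdgfa and Cebpb lies on the opposite strand, and the libraries do not mark strand. The share was 79.5% of exonic bases for Cfb, 41.7% for Cxcl11, 34.4% for Ctsd, 28.1% for Arg2 (with Vti1b), 26.1% for Pdgfa, 35.9% for Lilrb4a and 20.7% for Cebpb (with Tmem189). No other gene named above with a log2 fold change shared more than 20% of its exonic bases.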

How the data were processed

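Polyadenylated RNA of microglia in vitro was sequenced as single-end reads from TruSeq libraries, a kit that does not mark strand, per the labels' protocols. Reads were aligned with GSNAP to GRCm38, per the submitters' processing notes, with no version given there. Per the file headers, the count column deposited by the authors holds uniquely aligning reads per gene model. Per the file headers as well, the RPKM column deposited by the authors is adjusted with a size factor for each library, by a method not given. Of 36528 Entrez identifiers 31049 were named from RefSeq (GRCm38.p6), and unnamed identifiers held 1.07% to 1.31% of the counts. Groups follow the treatment labels.

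Genes with enough counts in any group (filterByExpr, 15585 genes) were fitted with edgeR 4.0.16 in R 4.3.3 over all 6 libraries, which share 1 estimate of the spread (3 residual degrees of freedom, common dispersion 0.000732). TMM factors were 1.192 and 1.190 (untreated), 0.806 and 0.806 (LPS) and 1.042 and 1.042 (Cop1 KO). The 10 most abundant genes took 13.9% of counts in untreated and 8.70% to 8.75% in LPS libraries. Replicates of a group correlated at 0.997 (log2 CPM, across genes) and differed beyond sampling noise (chi-square divided by its degrees of freedom 1.60 untreated, 2.57 LPS). The fit was tested on simulated data in which few genes changed, equally up and down. That test cannot show how the scaling acts when most genes are called. Tables were joined with Python 3.11.15.

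Genes at 0 counts in a group are given against a floor of 3 counts over that group, and those at 1 to 3 counts as ratios with a 95% interval. Both cover counting error only. Alternatives were median-of-ratios factors, library size alone, no low-count filter, the 4 libraries alone, each library left out, DESeq2 1.42.0, and limma 3.58.1 on log2(RPKM + 1). The members and the 46 gene lists and 10 marker lists were chosen with earlier results of these data known. Named genes follow a rule: the 15 largest called increases and decreases that averaged 5 CPM or more with groups apart, up to 5 called members per list and direction with at least 1 CPM and 1 uncalled member, defining markers, genes of the LPS pathway, the 10 most abundant genes per group and genes at 0 counts in a group. Not every gene the rule allows is printed, and genes outside it are said to be chosen after their values were seen, except Ifit1 and Gbp2, named for a printed promoter.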

Additional observations from a re-analysis of the deposited data

How the results depend on the processing

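Of the 213 genes named and tested, between 203 (library size alone) and 212 kept their direction and their side of the threshold under each of the 12 alternatives. The exceptions had small changes. Apoe was 0.068 with median-of-ratios factors, 0.071 with the 4 libraries alone, 0.068 with DESeq2 and 0.089 with limma. C1qc was 0.13 under the first 3 of these and 0.15 with limma. With library size alone Gfap was -0.45, Irf3 -0.56, Slc1a3 -0.56, Ms4a7 -0.21, P2ry6 -0.34 and Sall1 -0.17. Without the low-count filter Irf3 was -0.018 and Slc1a3 -0.021. Leaving out 1 library at a time gave C1qc -0.068 to 0.045, Irf3 -0.043 to 0.045 and Slc1a3 -0.028 to 0.034. Of 15 list medians given, 12 moved by more than the spread between replicates with median-of-ratios factors, the 4 libraries alone and DESeq2, and all 15 with limma, none of them changing sign. With limma the cytokine median was 4.09, the mitosis median -1.47 and the DNA replication median -0.58. Library size alone moved all 15 and turned the sign of 3, taking the medians of the TLR4 adaptors to -0.26, of glycolysis to -0.50 and of the TCA cycle and respiratory chain to -0.48.

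Library size alone gave 2678 genes raised, 10770 lowered and 4278 lowered past 2-fold. DESeq2 gave 1037 genes lowered past 2-fold, and limma gave 2093 past 2-fold, 571 of them lowered. Calls kept among the 11481 ranged from 81.38% (DESeq2) to 99.64%. Leaving out 1 library at a time gave 10666 to 11721 called genes (4465 to 4820 raised, 6200 to 6935 lowered) and 3620 to 3994 past 2-fold, and 11834 to 12445 against Cop1 KO. With 1 library left in a group, it is assumed to vary like the others. Of 96 counts of called list members 36 moved by over 1.5 times with library size alone and at most 11 under any other alternative. No paired analysis was possible because the labels carry no replicate numbers. Genes at a few reads have folds that depth limits.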

Other observations

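Several microRNA gene entries rose or fell with LPS. These values are reads of polyadenylated transcripts that overlap the entry, since all 5 entries given lie wholly within exons of another annotated gene, and they do not measure the mature microRNA. The genes were chosen after their values were seen. Of 113 microRNA entries tested 35 were raised and 27 lowered (17 and 11 past 2-fold), or 31.0% and 23.9%, against 30.2% and 43.4% of all genes. Mir155, whose product is known to restrain SOCS1 in activated macrophages, had 0 reads in both untreated libraries and 30 and 27 reads after LPS, at least 28.7-fold higher against a floor of 3 counts over the group (lower 95% counting limit 21.7). Mir147, which lies within AA467197, rose from 1.23 and 1.42 CPM to 188 and 201 CPM (7.19 ± 0.17 SE). Mir22 rose from 2.98 and 2.83 CPM to 12.1 and 11.5 CPM (2.02 ± 0.18 SE) and Mir21a, in the last exon of Vmp1, from 0.0794 and 0.336 CPM to 1.23 and 0.785 CPM (2.23 ± 0.59 SE), on few reads. Mir223, a microRNA of granulocytes and monocytes, fell from 2.54 and 2.01 CPM to 0.503 and 0.423 CPM (-2.28 ± 0.41 SE). The mature sequences from RefSeq on GRCm38.p6 follow, with the seed (bases 2 to 8) in capitals, and no 2 of them share a seed.
miR-155-5p (chr16:84714143-84714165, plus strand): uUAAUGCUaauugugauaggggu
miR-147-5p (chr2:122640814-122640837, plus strand): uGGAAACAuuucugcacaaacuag
miR-22-3p (chr11:75463772-75463793, plus strand): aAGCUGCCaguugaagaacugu
miR-21a-5p (chr11:86584120-86584141, minus strand): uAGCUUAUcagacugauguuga
miR-223-3p (chrX:96242884-96242905, plus strand): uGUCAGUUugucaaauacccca

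Among genes with no read in either untreated library, Heatr9 reached 662 and 643 reads after LPS, at least 657-fold higher (lower 95% limit 622), and Tarm1, which encodes a myeloid activating receptor, 345 and 355 reads, at least 352-fold higher (lower 95% limit 327). The zinc finger repressor gene Gfi1 had 104 and 80 reads (at least 92.6-fold, lower 95% limit 79.7) and Alpk2 84 and 92 (at least 88.6-fold, lower 95% limit 76.0). Lad1, with 2 reads over the untreated group and 2708 after LPS, gave a ratio of 2044 with a 95% counting interval of 565 to 16888. In the other direction, Myadml2 had 31 and 46 untreated reads and none after LPS, at least 17.0-fold lower (lower 95% limit 13.4). Other genes without reads after LPS had at most 26 reads over the untreated group among the 10 named by the rule.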
